A study of Mus musculus with 6 samples.

Results

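The 76 genes described here encode the proteins of the cytosolic ribosome of the mouse. They are the protein-coding rows of the deposited normalized table whose symbol is Rpl or Rps followed by a number, Rplp0 to Rplp2, or Rpsa, without the S6 kinase genes. Of 16448 rows of that table, 76 met the rule, 46 for the large subunit and 30 for the small subunit, and all 76 passed the filter on low counts. RNA was sequenced from sorted CD4+CD8+ double-positive thymocytes, with a sort purity above 98% per the labels, in 6 libraries of strain C57BL/6. The 3 KO libraries carried Mettl14fl/fl with CD4-Cre+, and the 3 littermate control libraries are labelled WT, with no allele or age given for them. CD4-Cre is driven by regulatory sequence of Cd4 and acts in T lineage cells from about this stage on. The question was whether loss of Mettl14, which with Mettl3 forms the enzyme that methylates adenosines of RNA, went with a different level of ribosomal protein mRNA.

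Each ribosome carries a single copy of most of these proteins, built around ribosomal RNA, and cells keep the mRNAs of both subunits in balance. Most ribosomal protein mRNAs begin with a cytosine and a run of pyrimidines, the TOP motif, through which mTOR and Larp1 control their translation. Many introns of these genes hold small nucleolar RNAs. In the thymus the proteins are known for stage-specific effects, of which the need for Rpl22 in developing alpha-beta T cells is the best described.

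The annotated starts were searched for the TOP motif, and a minority of the members held it exactly there. RefSeq promoter windows (GRCm38.p6, 250 bases before to 50 after the annotated start) were matched for 56 of the 76 genes. A C followed by 4 or more pyrimidines stood exactly at the annotated start in 12 of 56 (21.4%) and in 2.23% of the windows of 8973 other tested coding genes. CTTTC on the sense strand within 25 bases of the start stood in 30.4% of the members and in 5.41% of the others. Of these 12, the 5 lines below are those whose RefSeq start lay within 50 bases of the GENCODE transcript start. Capitals mark the pyrimidine run that begins at the annotated start, and each line holds 15 bases on each side of that point.
Rps6, chr4:86857353-86857382, minus strand: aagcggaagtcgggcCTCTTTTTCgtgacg
Rps18, chr17:33955651-33955680, minus strand: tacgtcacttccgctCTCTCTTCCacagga
Rps21, chr2:180257364-180257393, plus strand: taccgaggacccgccCTCCTgcccaatagt
Rps27, chr3:90213634-90213663, minus strand: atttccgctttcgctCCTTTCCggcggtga
Rpl38, chr11:114668565-114668594, plus strand: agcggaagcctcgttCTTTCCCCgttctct

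CCGGAAG, the core letters of an ETS or GABP motif, was found on either strand in 37.5% of the members' windows and in 20.0% of the others. Rps18 and Rps21, from the lines above, held it at more than 1 place, and their upstream stretches are shown with the motif in capitals.
Rps18, chr17:33955694-33955862, minus strand: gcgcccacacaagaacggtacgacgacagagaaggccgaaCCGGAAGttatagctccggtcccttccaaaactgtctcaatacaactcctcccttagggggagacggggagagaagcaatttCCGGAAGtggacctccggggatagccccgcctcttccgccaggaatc
Rps21, chr2:180257251-180257378, plus strand: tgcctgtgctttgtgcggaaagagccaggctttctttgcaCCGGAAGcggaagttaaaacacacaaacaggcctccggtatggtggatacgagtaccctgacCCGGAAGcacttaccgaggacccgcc
AAGATGG, read on both strands, stood in 14.3% of the members and 7.81% of the others, and the E-box CACGTG in 8.93% and 10.1%. These matches describe letters in the windows and are not measured binding.

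GGACT is the commonest form of the site that the Mettl3 and Mettl14 complex methylates. It was rarer in the members, with 0.805 sites per 1000 bases of GENCODE M21 transcript against 1.10 in 11163 other tested coding genes. At least 1 GGACT stood in 37 of 76 members (48.7%) and in 91.6% of the other genes, whose transcripts were longer (median 2844 bases against 767.5). Sites in Rpl11, Rpl22 and Rps6, described by role below, are shown with the site in capitals, and positions count from the first base of the transcript.
Rpl11, bases 412 to 440: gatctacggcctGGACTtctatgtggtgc
Rpl11, bases 719 to 747: agcctgcgtcctGGACTccagtgtctccc
Rpl22, bases 88 to 116: gaagttcaccctGGACTgcactcaccctg
Rps6, bases 441 to 469: aaggatattcctGGACTgacagacactac
The files measure transcript levels only, so whether any of these sites was methylated in these cells was not measured.

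Each library held between 29500254 and 33377056 gene counts, and a member's raw count in a library was between 276 and 39132. Levels are given as TMM-scaled CPM, counts per 1e+06 gene counts of the library after scaling between libraries. The targeted gene, Mettl14, was at 52.1, 58.8 and 55.8 CPM in WT replicates 1 to 3 and at 42.2, 40.3 and 36.4 CPM in the KO, lower in 3 of 3. Its log2 fold change of -0.49 (SE 0.0855) had an adjusted p of 0.289 in edgeR's quasi-likelihood test and of 0.0043 in DESeq2. The 12 markers of double-positive cells, among them Rag1 and Cd8a, summed to between 16745 and 18631 CPM in the 6 libraries. Their log2 fold changes lay above 0 for 10 of 12 (83.3%, against 48.9% of all tested genes), with a median of 0.04 and a highest of 0.35. The edgeR unadjusted p was under 0.05 for 1 of them, higher in KO (3.41% of all tested genes), and 0 were called. Separate animals are not named for the libraries, so a p-value here measures spread among libraries, part of which may be technical. Over the 76 genes the chi-square per degree of freedom between replicates of a group was 11.6 to 27.1, where sampling noise alone gives about 1. Of 9 stromal, epithelial and endothelial markers, which summed to 149 to 180 CPM, Krt5 and Foxn1 were at 0 in every library and 3 were tested. Epcam was at 2.39 to 3.54 CPM in WT and 3.68 to 5.18 CPM in KO, without overlap, and Pecam1 and Col1a1 overlapped.

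The members spanned a wide range of levels. The most abundant by CPM was Rpl4, a large subunit protein of the exit tunnel, at 970, 1109 and 1157 CPM in WT and 1151, 1058 and 1213 CPM in KO. The lowest was Rpl24, at 9.34, 12.3 and 9.53 CPM in WT and 9.98, 9.35 and 10.1 CPM in KO, against a mean of 58.2 for the next lowest and a median of 246 over the members. The 5 most abundant members took 18.5% of the members' counts. Rpl24 shares 71.5% of its exon bases on the same strand with the annotated gene Gm28037, which had 0 counts in all 6 libraries. The part of that overlap in the low level of Rpl24 was not tested.

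Per 1000 bases of transcript, the mean level over the 6 libraries was highest for Rps29 at 890 CPM, Rps27 at 883 and Rplp1 at 877. Rps9 (841), Rps14 (816) and Rps15 (806) followed. Rps29, Rps27, Rps14 and Rps15 are small subunit proteins, and Rplp1 is an acidic protein of the stalk that recruits elongation factors. At the other end stood Rpl24 at 14.9, Rps15a at 47.0, Rpl35 at 69.3 and Rps20 at 78.0 CPM per 1000 bases. The medians were 275 for the large and 325 for the small subunit genes. Exons of 8 members overlap a gene on the other strand, from which unstranded reads cannot be told apart, and whether counting used strand is not given in the sources used here. The overlap covers 68.3% of the exon bases of Rpl35, 55.4% of Rpl23a and 46.6% of Rpl5, and at most 16.5% in Rpl12, Rpl28, Rpl32, Rps10 and Rps25. This order depends on the length used. The deposited gene lengths (median 3271.5 bases, from 255 to 11538) exceeded the transcript lengths by a median factor of 3.63, and the ranks of the 2 scales had a Spearman coefficient of 0.591 across the 76 genes. The 11538 bases deposited for Rps15a, against 5130 in the chosen transcript, were the longest. The chosen transcripts of Rps15a and Rps20, 5130 and 3706 bases, were themselves long against the members' median of 767.5. Without division by length, the mean levels of Rps15a and Rps20 were 241 and 289 CPM, against a median of 246 over the members.

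**Figure D1:**
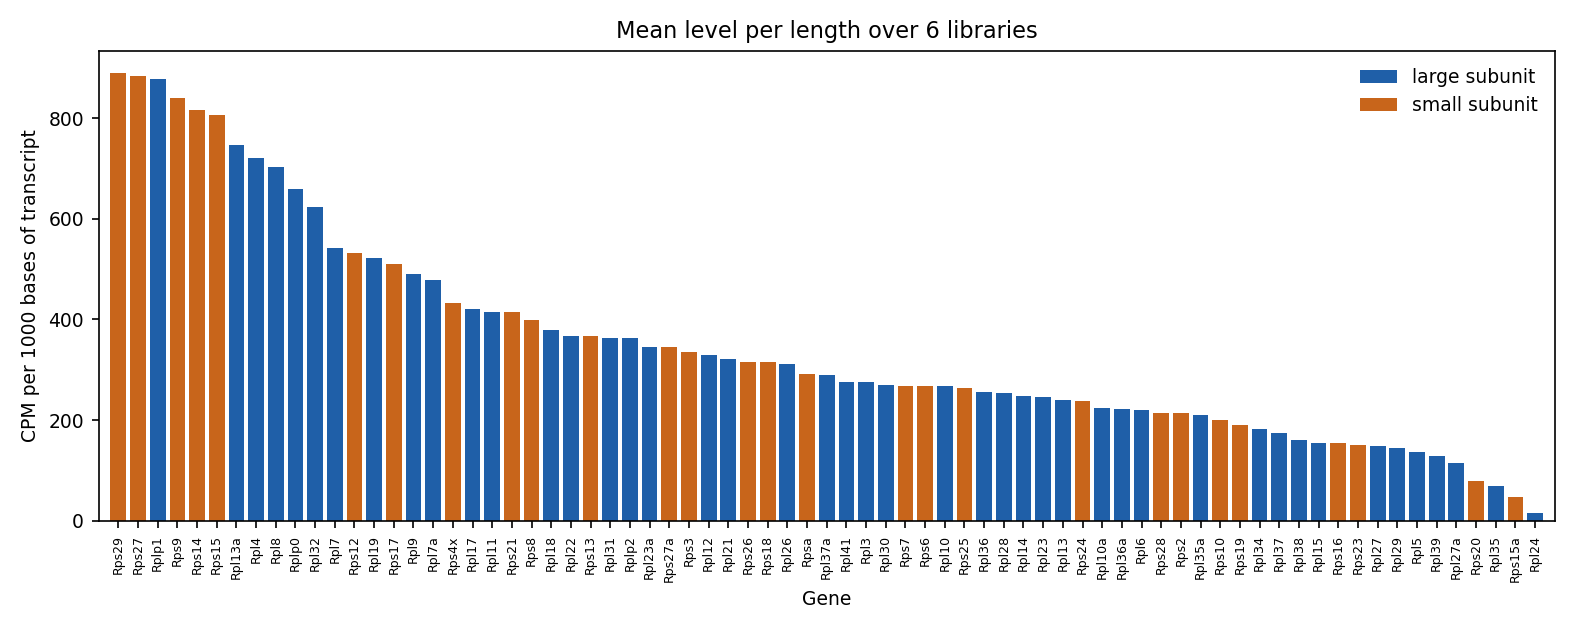
Bars give the mean CPM over 6 libraries per 1000 bases of GENCODE M21 transcript for 73 of the 76 genes, in falling order, colored by subunit. The highest bar is Rps29 at 890 and the lowest Rpl24 at 14.9, and genes of both subunits are spread along the whole order.

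The libraries differed more than the groups did, and WT replicate 1 and KO replicate 3 stood at the 2 ends. WT replicate 1 was the lowest of the 6 libraries for 57 of 76 members (75.0%), against 25.8% of all tested genes. KO replicate 3 was the highest for 54 of 76 (71.1%), against 14.7% of all tested genes. The median log2 deviation from each gene's mean was -0.115, 0.02 and 0.04 in WT replicates 1 to 3 and -0.01, -0.03 and 0.098 in the KO. Genes of both subunits moved together in these libraries. WT replicate 1 was lowest for 33 of 46 large and 24 of 30 small subunit genes, and KO replicate 3 highest for 30 of 46 and 24 of 30. Rplp0, the base of the ribosomal stalk, had the widest relative range, at 735, 890 and 923 CPM in WT and 950, 896 and 982 CPM in KO.

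**Figure D2:**
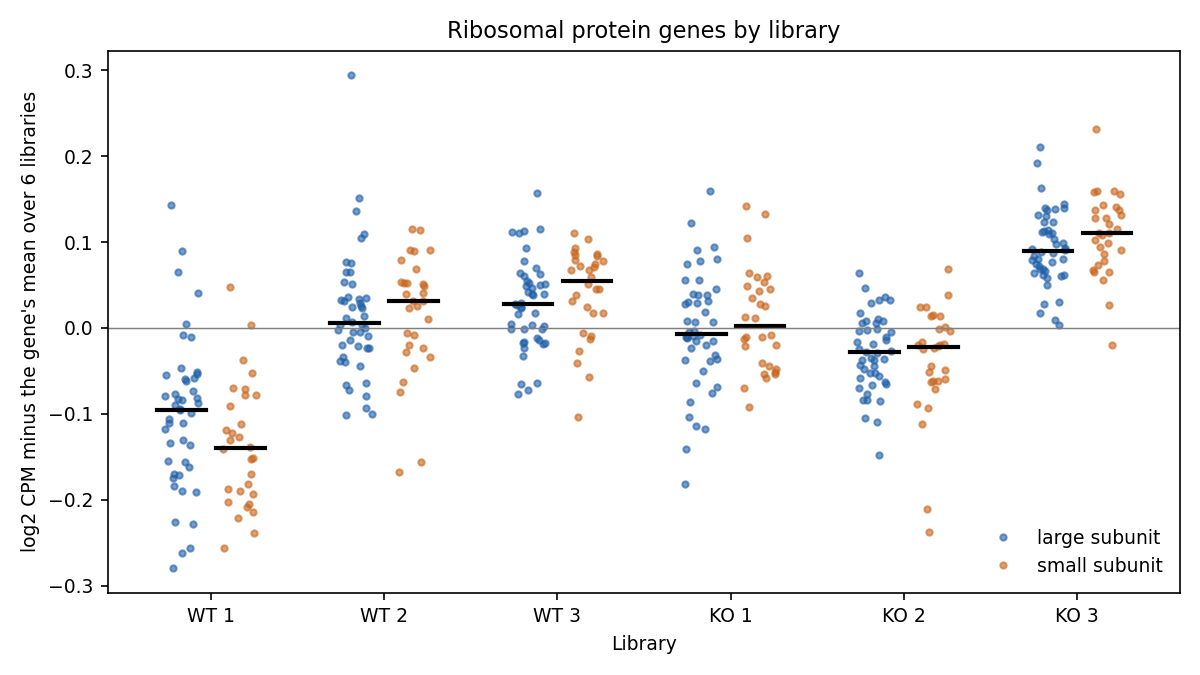
Each point is 1 ribosomal protein gene in 1 library, as log2 CPM minus the mean of that gene over the 6 libraries, and black lines mark the medians for each subunit. The points of WT replicate 1 lie mostly below 0 and those of KO replicate 3 above it, and 2 small subunit genes, Rps13 and Rps15a, lie far below the rest in KO replicate 2.

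WT replicate 1 also stood apart in genes of the immediate early response, a set that stimulated cells switch on quickly. Their summed level over the list was 2044 CPM in that library against 1150 to 1550 in the other 5. Fos was at 83.7 CPM there and at 2.54 to 7.69 CPM in the others, and Jun at 155 against 7.75 to 16.6 CPM. Summed NK and gamma-delta T cell markers were higher in all 3 KO libraries, and summed myeloid markers in KO replicates 2 and 3. The NK and gamma-delta T cell markers summed to 2.58 to 3.60 CPM in WT and 6.88 to 8.99 CPM in KO, without overlap. All 5 tested markers of that list had an edgeR unadjusted p under 0.05, higher in KO (background 3.41%), and 0 were called. WT and KO did not overlap for 4 of the 5 (background 6.59%). In the authors' deposited DESeq2 results, 2 markers of the list were called, with a lowest adjusted p of 0.0021. Myeloid and antigen-presenting markers summed to 87.4 to 93.6 CPM in WT and 91.0, 123 and 107 CPM in KO replicates 1 to 3, and Cd74 reached 18.7 CPM in KO replicate 2. Of 7 tested myeloid markers, 6 lay above 0 (85.7%, background 48.9%), with a median log2 fold change of 1.34. For 2 of the 7 the edgeR unadjusted p was under 0.05, higher in KO (background 3.41%), and 0 were called. All KO libraries lay above all WT libraries for 2 of the 7 (28.6%, background 6.59%). The sums of B cell markers overlapped, at 796 to 845 CPM in WT and 797 to 844 CPM in KO. Of 4 tested B cell markers, 3 lay above 0, with a median log2 fold change of 0.90. An edgeR unadjusted p under 0.05 was found for 2, higher in KO (background 3.41%), and 0 were called. The part of these differences in the levels of the ribosomal protein genes was not tested. In bulk samples, fewer cells of a type and less RNA per cell cannot be told apart.

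Between the genotypes, 0 of 76 ribosomal protein genes passed an adjusted p of 0.05 in edgeR's quasi-likelihood test, where the background over all tested genes was 0.0383% (5 of 13039). The lowest adjusted p of a member was 0.733. DESeq2 and limma-voom also called 0 members, with backgrounds of 0.678% and 0.0537%, and the authors' deposited table called 0 of 76 members against 0.762% of its genes, with a lowest adjusted p of 0.583. At an unadjusted p under 0.05 in either direction stood 1 of 76 members, where the background was 6.72%. DESeq2 and limma-voom also had 1 member each at that level (backgrounds 5.11% and 6.82%). The edgeR member was higher in KO (background 3.41%), and 0 were lower (background 3.31%). The lowest log2 fold change was -0.09, in Rps25.

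The intervals show what sizes of change these libraries leave room for. The 95% intervals of all 76 members lay between folds of 0.740 and 1.29, and for 68 of them the upper bound was at most 1.25-fold. The interval of 75 of 76 included 0. The highest library exceeded the lowest by 1.09 to 1.34 times (median 1.18). On the log2 scale the median SD over the 6 libraries was 0.094 for members and 0.167 for all tested genes. In simulated counts, known changes were given to genes drawn at random from all 13039 tested genes. There the same edgeR test recovered 6% of genes changed 1.25-fold and 22% of those changed 1.5-fold. The simulation was not limited to the members, whose spread was smaller, so these shares are not recovery rates for them.

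**Figure D3:**
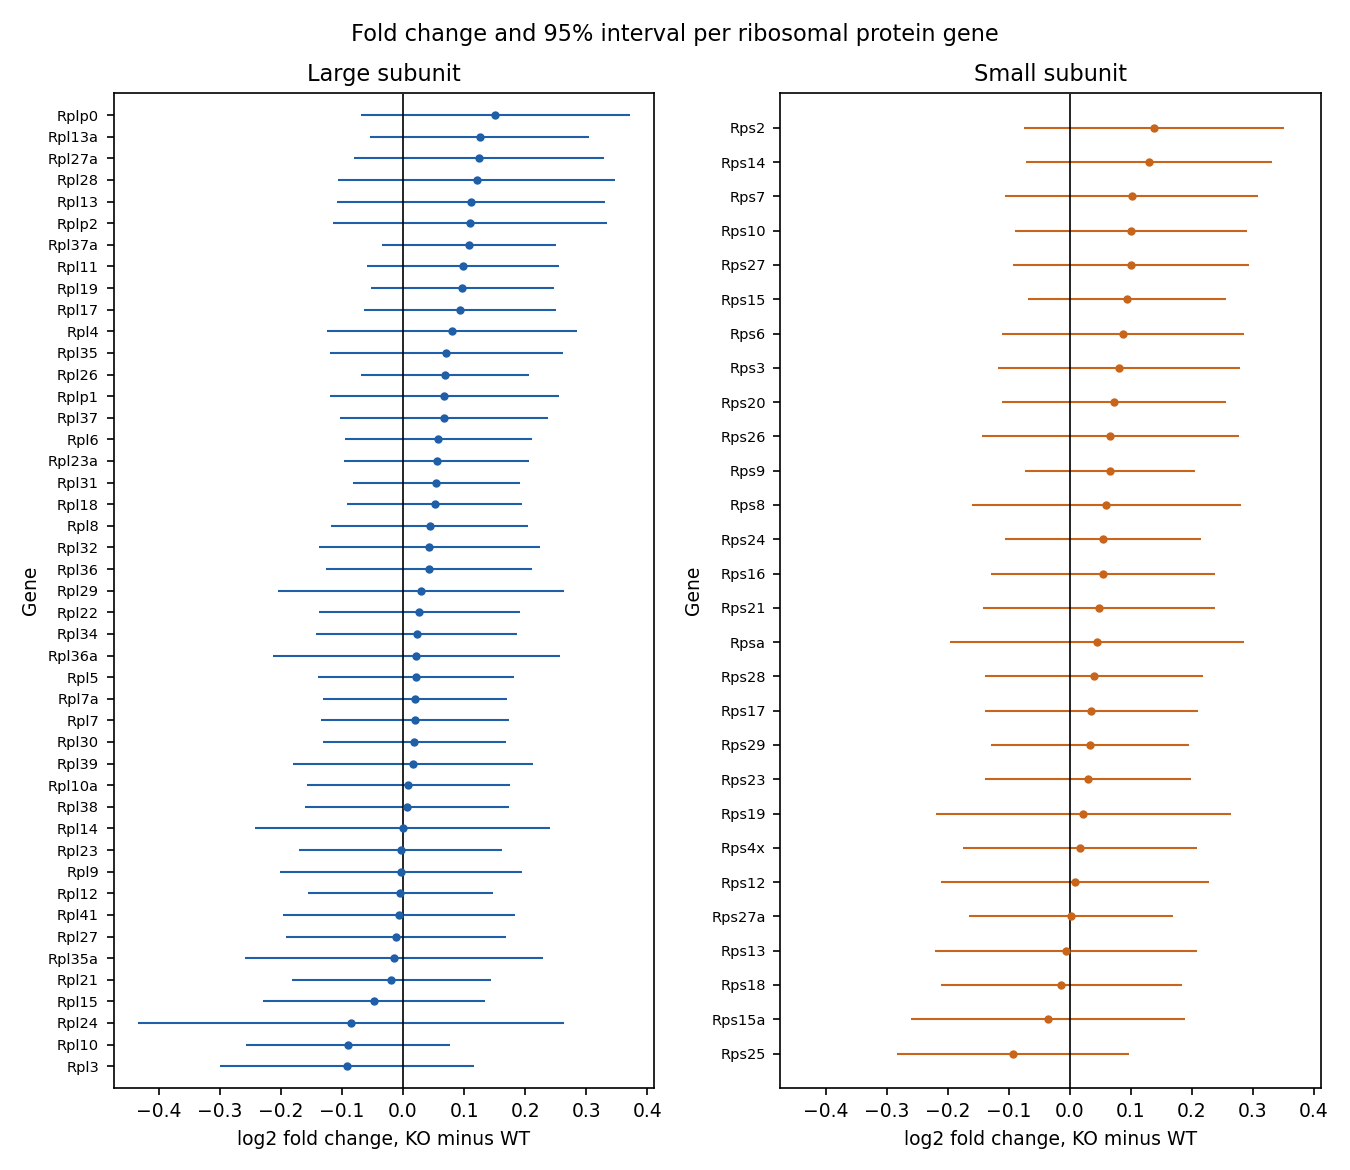
Points are the edgeR log2 fold changes, KO minus WT with 3 libraries each, and lines the 95% intervals, for 45 large (left) and 28 small (right) subunit genes. All 73 intervals shown include 0, and that of Rpl24 reaches lowest.

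A small shift toward KO was present in most members, and it rested on 2 libraries. Of the 76, 60 had a log2 fold change above 0 (78.9%), where the background was 48.9%, and the median was 0.04 against -0.004 for all tested genes. The median was 0.04 for the large and 0.05 for the small subunit. Without WT replicate 1 the median fell to 0.0015 with 39 of 76 above 0, and without KO replicate 3 it was 0.0054 with 41 of 76. With upper-quartile scaling it was 0.02 with 49 of 76 above 0. Groups did not overlap for 7 members with KO above WT (background 6.59%), among them Rpl19, Rpl26, Rpl31, Rpl37a and Rps9, and for 0 with KO below WT (background 5.97%). The 7 are 9.21% of the members.

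Rpl37a, of the large subunit, was at 155, 151 and 162 CPM in WT against 171, 163 and 171 CPM in KO, with an edgeR adjusted p of 0.771. Its log2 fold change was 0.11, and all 3 KO libraries lay above all 3 WT libraries. Rpl19 was at 357, 383 and 396 CPM in WT and 399, 400 and 416 CPM in KO, and Rps9 at 615, 617 and 619 CPM in WT and 627, 637 and 674 CPM in KO. Both differences were small, with edgeR log2 fold changes of 0.097 (adjusted p 0.792) and 0.07 (adjusted p 0.845).

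The stalk proteins carry elongation factors to the ribosome. Rplp0 had a log2 fold change of 0.15 (SE 0.0953), and its groups overlapped. Rplp1 was at 415, 430 and 437 CPM in WT and 404, 451 and 489 CPM in KO. Rplp2 was at 291, 357 and 362 CPM in WT and 372, 340 and 377 CPM in KO. In all 3 the WT and KO ranges overlapped, and the adjusted p by edgeR was 0.785 or more.

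Rpl5 and Rpl11 form, with 5S RNA, the particle that binds Mdm2 when ribosome assembly is disturbed. Rpl5 was at 264, 283 and 288 CPM in WT and 278, 269 and 300 CPM in KO. Rpl11 was at 319, 330 and 351 CPM in WT and 375, 344 and 352 CPM in KO. Rpl5 had a log2 fold change of 0.02 and Rpl11 of 0.098, and neither passed the edgeR test (adjusted p 0.963 and 0.802). Rpl22, which developing T cells need, was at 162, 178 and 177 CPM in WT and 166, 175 and 185 CPM in KO. Its log2 fold change was 0.03 with a 95% interval of -0.14 to 0.19. Its paralog Rpl22l1 was at 28.8, 30.7 and 36.4 CPM in WT and 24.7, 25.4 and 33.7 CPM in KO, with an edgeR adjusted p of 0.813. The WT and KO ranges of both paralogs overlapped.

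For Rpl3, Rpl10, Rpl8 and Rpl4, proteins at or near the peptidyl transferase center or the exit tunnel, WT and KO ranges overlapped. Rpl3, at the catalytic center, was at 358, 390 and 400 CPM in WT and 341, 334 and 403 CPM in KO. Rpl10, which is added late in assembly, was at 227, 217 and 217 CPM in WT and 193, 204 and 224 CPM in KO. Rpl3 and Rpl10 had the lowest log2 fold changes of the large subunit, -0.092 and -0.090, and their groups overlapped. Rpl8 was at 574 to 600 CPM in WT and 576 to 654 CPM in KO, and Rpl4 had a log2 fold change of 0.08. Rpl23, a protein of the face between the subunits, had one of -0.004. Rpl13a, known from a translational silencing complex, was at 694, 728 and 824 CPM in WT and 826, 817 and 808 CPM in KO, with a log2 fold change of 0.13. Rpl13a shares 59.3% of its exon bases on the same strand with Gm45713, which had 728 to 1163 counts per library.

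Of the remaining named large subunit genes, Rpl32 had a log2 fold change of 0.04, Rpl41, the shortest of the proteins, of -0.01, Rpl35a of -0.01 and Rpl15 of -0.05. Rpl24 was at -0.09 and had the widest interval, from -0.43 to 0.26.

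Among the small subunit genes, Rps6 is the classic substrate of S6 kinase. It was at 205, 239 and 238 CPM in WT and 245, 224 and 256 CPM in KO. Rps14 and Rps19, genes of inherited or acquired anemias, were at 420 to 515 and 126 to 155 CPM in WT and 480 to 525 and 139 to 163 CPM in KO. The groups overlapped for all 3, and their log2 fold changes were 0.09, 0.13 and 0.02. Rps2 was at 192, 220 and 198 CPM in WT and 212, 210 and 250 CPM in KO, with a log2 fold change of 0.14. Rpsa, also known as the laminin receptor, was at 388, 493 and 492 CPM in WT and 472, 445 and 499 CPM in KO. For Rpsa, WT replicate 1 was the lowest library of all 6.

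Rps27 had a log2 fold change of 0.10, Rps27a, made as a fusion with ubiquitin, of 0.002, and Rps4x, encoded on the X chromosome, of 0.02. Rps25, needed for some kinds of internal initiation, was at 144, 165 and 164 CPM in WT and 143, 141 and 159 CPM in KO. Its value of -0.09 (95% interval -0.28 to 0.10) was the lowest of the 76, and its groups overlapped. None of Rps27, Rps27a, Rps4x and Rps25 passed the edgeR test, with adjusted p of 0.836 or more.

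Summed over the genes, the members took 2.05%, 2.21% and 2.23% of gene counts in WT replicates 1 to 3 and 2.16%, 2.13% and 2.34% in the KO. The means were 2.16% ± 0.0983 (SD, n = 3) in WT and 2.21% ± 0.114 in KO, and the groups overlapped. The lowest and highest of the 6 were again WT replicate 1 and KO replicate 3. Without WT replicate 1 the difference of the means turned from 0.05 to -0.01 percentage points, and without KO replicate 3 to -0.02. Large subunit counts exceeded small subunit counts by 1.49, 1.46 and 1.47 times in WT and 1.46, 1.48 and 1.46 times in KO. The balance of the subunits thus varied over the 6 libraries by less than the share did. Reads with no feature made up 13.9% to 15.2% of counted reads in WT and 12.3% to 14.2% in KO, and their part in the share was not tested.

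**Figure D4:**
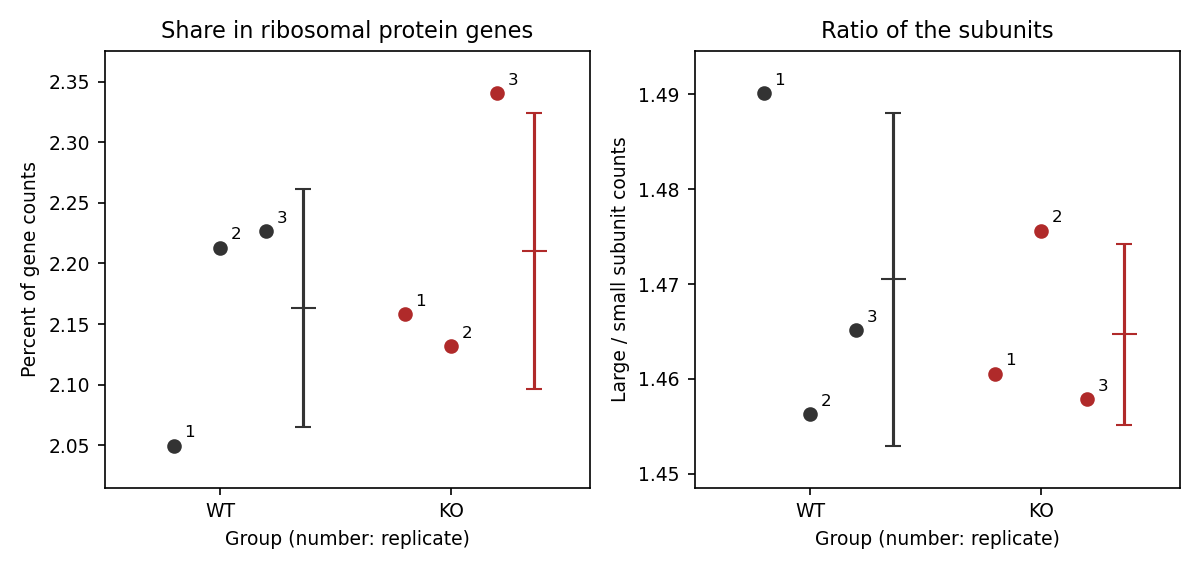
The left panel gives the percent of gene counts in the 76 genes and the right panel the ratio of large to small subunit counts, 1 point per library with its replicate number, and the mean with SD (n = 3) beside it. The axes do not start at 0. WT and KO overlap in both panels, from 2.05% to 2.34% and from 1.46 to 1.49.

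Features that played no part in choosing the genes were set beside the fold changes. The 37 members with a GGACT had a median log2 fold change of 0.05 and the 39 without one of 0.04. Small nucleolar RNAs were annotated within 29 of 76 members (38.2%), 56 in all, and within 1.51% of the other tested coding genes. The median log2 fold change was 0.05 for these 29 hosts and 0.04 for the other 47. The 76 genes lie on 19 chromosomes, with 14 on chromosome 7.

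Ribosomal protein genes have many processed pseudogenes, copies of the mRNA inserted into the genome. In the reference transcripts, 75 of 76 members shared at least 1 window of 50 bases with another gene. The shared part was a median of 52.2% of the windows and reached 98.6% in Rps27, and Rpl7a shared windows with 123 genes. Reads with several alignments made up 22.6% to 23.9% of counted reads and were not assigned to genes. How far this lowered the level of each member was not tested. Across the 76 genes, the shared part and the level per length had a Spearman coefficient of -0.004. Of 1083 pseudogenes that share windows with members, 747 were matched by symbol in the deposited counts, and the rest were not summed. The matched 747 took 0.821% to 1.02% as many counts as the members. For 5 members the matched copies reached 5% of the level of the gene.

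Rps13 and Rps15a stood out in KO replicate 2, where each was at its lowest and a copy was at its highest. They were chosen after their values were seen. Rps13 (chromosome 7) was at 216, 219 and 215 CPM in WT and 224, 186 and 237 CPM in KO. Its copy Rps13-ps1 (chromosome 8) was at 29.3, 29.3 and 28.9 CPM in WT and 28.8, 58.6 and 32.2 CPM in KO. Rps13 and Rps13-ps1 together were at 244 to 269 CPM, so that the highest library exceeded the lowest by 1.11 times in place of 1.27 for Rps13 alone. Rps15a was at 204 CPM in KO replicate 2 and 236 to 263 CPM in the other libraries, and Rps15a-ps8 (chromosome 4) at 22.6 CPM there and 10.6 to 12.6 CPM elsewhere. Rps15a with Rps15a-ps8 stayed lowest in KO replicate 2, at 226 CPM against 248 to 274 CPM.

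A larger exchange appeared in Rps3a1, which encodes eS1 of the small subunit and whose symbol the rule does not match. Rps3a1 (chromosome 3) was at 120, 428 and 128 CPM in WT and 422, 268 and 300 CPM in KO. Rps3a3, its copy on chromosome 13, was at 171, 2.60 and 174 CPM in WT and 0.696, 90.2 and 101 CPM in KO. WT replicate 2 and KO replicate 1 were highest for Rps3a1 and near 0 for Rps3a3, WT replicates 1 and 3 were lowest for Rps3a1 and highest for Rps3a3, and KO replicates 2 and 3 lay between. The levels of Rps3a1 and Rps3a3 together ran from 291 to 430 CPM, 1.48 times from lowest to highest, against 3.56 times for Rps3a1 alone. The pattern crosses the genotypes, and the edgeR log2 fold change of Rps3a1, 0.55 (SE 0.471), had an adjusted p of 0.840. Why the copies differ between libraries was not tested.

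The aligned parts of gene and copy show how few bases separate them. Rps13-ps1 differed from the Rps13 transcript at 2 of 522 aligned bases (99.6% identity), Rps3a3 from Rps3a1 at 9 of 795 (98.9%), and Rps15a-ps8 from Rps15a at 30 of 387 (92.2%). Capitals mark a base that differs in the stretches shown, and positions count from the first base of each transcript.
Rps13, bases 484 to 513: gcgggtgctcccaccTaattggaaatatga
Rps13-ps1, bases 427 to 456: gcgggtgctcccaccCaattggaaatatga
Rps3a1, bases 334 to 363: tgaagtgagccttgcTgatctacagaatga
Rps3a3, bases 201 to 230: tgaagtgagccttgcCgatctacagaatga
Reads that do not cross such a base fit both genes.

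**Figure D5:**
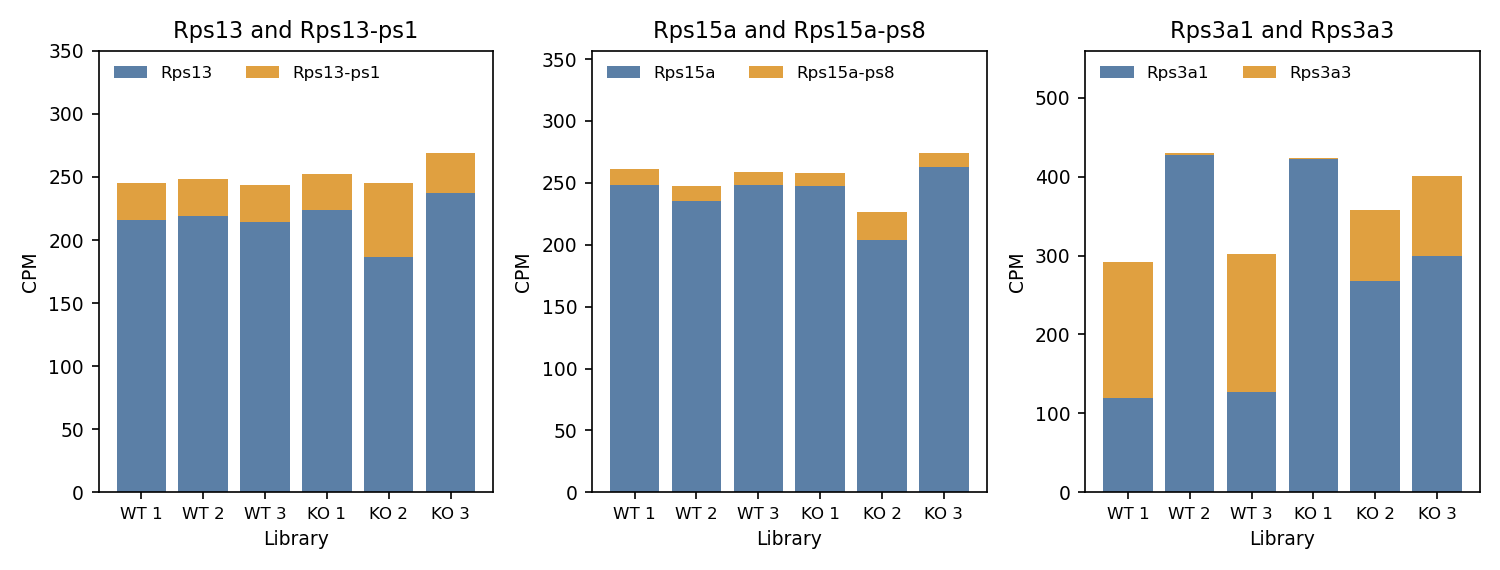
Stacked bars give TMM-scaled CPM per library for 3 genes (blue) with 1 processed pseudogene each (orange). KO replicate 2 has the largest part of Rps13-ps1 and of Rps15a-ps8, and Rps3a3 ranges from 0.696 to 174 CPM without following genotype.

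Of 4 ribosomal proteins whose symbols do not match the rule, 0 were called by edgeR. An unadjusted p under 0.05 was found for 1, higher in KO (background 3.41%). Fau, a fusion of a ubiquitin-like protein with eS30, was at 183, 191 and 210 CPM in WT and 233, 215 and 213 CPM in KO. Its groups did not overlap, which held for 1 of the 4 (background 6.59%), and its adjusted p by edgeR was 0.733. Rack1, a scaffold on the head of the small subunit, had a log2 fold change of 0.04. Of 9 listed paralogs, 8 were tested, and 0 were called or had an unadjusted p under 0.05 (backgrounds 0.0383% and 6.72%). Rpl3l and Rpl39l, known from muscle and testis, were at 1.05 CPM or less in every library, and Rpl10l had 0 counts.

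Genes that act with the ribosome were counted from lists that include no member, and DESeq2 and limma-voom called none of them either. Of 14 translation factor and related genes with a TOP motif, 0 were called by edgeR. An unadjusted p under 0.05 was found for 2, both higher in KO (background 3.41%). Log2 fold changes lay above 0 for 10 of the 14 (71.4%, where the background was 48.9%), and their median over the 14 was 0.05. All KO libraries lay above all WT libraries for 3 of the 14 (21.4%, background 6.59%) and below them for 1 (7.14%, background 5.97%). Tpt1 was at 1013, 1012 and 1073 CPM in WT and 1172, 1163 and 1145 CPM in KO, without overlap (edgeR adjusted p 0.713). Of 63 tested ribosome biogenesis genes, 0 were called, 3 had an unadjusted p under 0.05, all lower in KO (4.76%, background 3.31%), and 18 lay above 0 (28.6%, where the background was 48.9%), with a median of -0.07. The lowest p values among them belonged to Nop58, a core box C/D protein, at 85.0, 107 and 96.8 CPM in WT and 81.7, 81.9 and 81.3 CPM in KO, Ltv1, a small subunit assembly factor, and Polr1b, a subunit of RNA polymerase I. The log2 fold changes of Nop58, Ltv1 and Polr1b were -0.24, -0.27 and -0.32, each with an edgeR adjusted p of 0.715. The KO libraries lay below all WT libraries for 8 of the 63 (12.7%, background 5.97%) and above them for 3 (4.76%, background 6.59%).

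Other lists also had 0 calls by edgeR. At an unadjusted p under 0.05 they held 1 gene, Mrps10 of the mitochondrial list, lower in KO (background 3.31%). Of 17 mTOR, Myc and TOP regulators, 11 lay above 0 (64.7%, where the background was 48.9%), with a median of 0.04. Myc was at 28.8, 34.8 and 29.3 CPM in WT and 22.6, 23.0 and 31.1 CPM in KO. Of 9 ribosome quality control genes, 7 lay above 0 (77.8%, same background), with a median of 0.03. Of 74 proteins of the mitochondrial ribosome, 28 lay above 0 (37.8%, same background), with a median of -0.02. Mrps10, of the small mitochondrial subunit, had the lowest p of them, at 27.8, 26.5 and 22.5 CPM in WT and 19.6, 21.7 and 17.8 CPM in KO (edgeR adjusted p 0.678).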

How the data were processed

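RNA sequencing libraries of 3 WT and 3 KO samples were compared. The submitters' processing notes list Trimmomatic 0.33, STAR 2.5.2, HTSeq, DESeq2 and the build mm10. How reads were counted, on which strand and with which annotation is not given in the sources used here, so genes that overlap on opposite strands (8 members) cannot be separated. The authors deposited raw counts per gene and library, a combined count table with gene lengths, and a normalized signal per library, which is the count divided by a size factor. The authors' deposited log2 fold changes with their standard errors, test score (statistic), and p-values come from their own fit, which they call paired without a label that says what was paired. Rows of the count files that name no gene stayed out of library sizes and tests: reads with no feature were 12.3% to 15.2% of counted reads, multiply aligned reads 22.6% to 23.9%, and reads ambiguous between genes 0.653% to 0.701%.

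The raw counts of all genes were fitted with edgeR 4.0.16 in R 4.3.3 (TMM, filterByExpr, two-sided quasi-likelihood test with genotype as the only term, p adjusted by Benjamini-Hochberg over 13039 genes, threshold 0.05), and the members' rows were read from that fit. Each SE was taken as the size of the log2 fold change over the root of its F statistic. With 3 libraries against 3, an exact permutation test cannot go below 0.1, so none was run. Alternatives were DESeq2 1.42.0, limma-voom (limma 3.58.1), 2 other scalings, no filter, a replicate block, and leaving out each library. A block that sets replicates 1 and 2 against 3, replicates 1 and 2 alone, replicate 3 alone, transcript lengths, and sums with pseudogenes were added after seeing the data. Transcripts, exons and small nucleolar RNAs are those of GENCODE M21 (1 principal transcript per gene), and promoters those of RefSeq (GRCm38.p6). Gene and copy were aligned with Biopython 1.88. The edgeR test was checked on simulated counts of 13039 genes, where 6 of 96 calls were false.

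The members and lists were chosen with earlier results of these data known. The rule named members with assigned roles, the 6 highest and 4 lowest per deposited length, the 5 highest and 5 lowest in log2 fold change, the 5 with the lowest p, the member with the widest spread, and up to 3 members of each related list with the lowest p. A few members that this rule would name are left out of the text and of labelled figures.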

Additional observations from a re-analysis of the deposited data

How the results depend on the processing

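No ribosomal protein gene was called under any alternative, and the lowest adjusted p in any fit was 0.319, without WT replicate 3. The number of calls over all tested genes was 5, and 30 with no filter on low counts, 105 with DESeq2 and 4 to 23 when each library was left out. No label says that replicate numbers pair the samples, and same-numbered libraries' deviations correlated at -0.149, 0.08 and 0.19 over all genes, and not every sample correlated best with its own number. The replicate block gave 5 calls and a median member log2 fold change of 0.05, with no change of a member's call. The median of the members ran from 0.0015 to 0.08 when each library was left out. The median of the paralogs was -0.15 in replicates 1 and 2 alone and ran from -0.15 to 0.033 with each library left out, and that of ribosome biogenesis genes was -0.036 in replicate 3 alone. Of the fits made here, Mettl14 passed only in DESeq2 (-0.48, adjusted p 0.0043). It also passed in the authors' deposited DESeq2 results (-0.48, adjusted p 0.0040). Of 52 named genes, 20 changed sign under some alternative, none of them called. For 5 of these the sign changed in replicate 3 alone, a value with no test: Rpl10 was then at 0.045, Rpl13a at -0.028, Rpl3 at 0.0098, Myc at 0.082 and Mrps2 at 0.097. In that setting Rpl15 was at 0.060, Rpl23 at 0.090, Rpl24 at 0.079 and Rps15a at 0.083. With upper-quartile scaling Rpl5 was at -0.000555, Rps27a at -0.020 and Rps4x at -0.0049. With no filter Rpl23 was at 0.0088 and Rpl41 at 0.0052, and with DESeq2 Rpl23 was at 0.0032. In replicates 1 and 2 alone Rpl41 was at 0.0050, Rpl8 at -0.0057, Rps19 at -0.0025, Rps27a at -0.034 and Rps4x at -0.048. With the block of replicates 1 and 2 against 3, Rps27a was at -0.00029. With each library left out the log2 fold change ran from -0.116 to 0.0025 for Rpl15, -0.015 to 0.067 for Rpl22, -0.042 to 0.050 for Rpl23, -0.158 to 0.056 for Rpl24, -0.023 to 0.083 for Rpl32, -0.082 to 0.071 for Rpl35a, -0.065 to 0.057 for Rpl41, -0.021 to 0.062 for Rpl5, -0.010 to 0.088 for Rpl8, -0.110 to 0.072 for Rps15a, -0.072 to 0.076 for Rps19, -0.053 to 0.040 for Rps27a, -0.060 to 0.075 for Rps4x, -0.062 to 0.106 for Rpsa and -0.0020 to 0.080 for Rack1. The causes were not tested. The lowest count of a member in a library was 276, and an effect of depth was not tested.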

Other observations

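Some other genes of chromosome 3, which holds Rps3a1, had levels that varied over the libraries in the same or the opposite order. The annotated span of Rps3a1 begins at base 86137940, and those of Rxfp1, Cd1d2, Naxe and Tmod4 at 79641611, 86986551, 88056520 and 95124476. The genes set beside Rps3a1 were chosen after their values were seen, and no test was made. Naxe, an epimerase of damaged NADH, was at 12.2, 27.9 and 14.4 CPM in WT and 26.5, 19.1 and 20.6 CPM in KO, in the same order of library groups as Rps3a1. Tmod4, a tropomodulin of muscle, was at 23.2, 4.03 and 21.2 CPM in WT and 3.35, 15.0 and 11.9 CPM in KO. Cd1d2, a copy of the lipid-presenting Cd1d1, was at 50.1, 20.0 and 34.9 CPM in WT and 14.1, 26.5 and 25.4 CPM in KO, and Rxfp1 at 10.2, 3.09 and 8.98 CPM in WT and 2.95, 4.74 and 5.76 CPM in KO. Tmod4, Cd1d2 and Rxfp1 were lowest in WT replicate 2 and KO replicate 1, where Rps3a1 was highest. Mettl14, the targeted gene, also lies on chromosome 3, with an annotated span that begins at base 123364645. The cause of these levels, and any link with that position, was not tested.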
